A study of Mus musculus with 9 samples.

Results

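The mitochondrial ribosomal protein genes are the nuclear genes whose symbols start with Mrpl (large subunit) or Mrps (small subunit) followed by a number and at most 1 letter. By that rule 78 of the 55385 genes in the count table were members, all annotated as protein-coding. The RNA came from tdTomato-positive kidney cells of male mice, 9 to 12 weeks old and 25 to 30 g, and polyadenylated RNA was sequenced in 9 libraries, 3 in each of 3 groups. The uninjured group held proximal tubule cells of Slc34a1IRES-CreERT2/+:R26RtdT/+ mice, in which tamoxifen lets a Cre recombinase driven by the phosphate transporter gene Slc34a1 switch on tdTomato. Both injured groups came from Sox9IRES-CreERT2/+:R26RtdT/+ mice with ischemia-reperfusion injury of both kidneys, where Cre is driven by Sox9, a transcription factor that tubule cells switch on after injury. Tamoxifen was given at injury for the group collected at 48 h, and on days 10 and 12 for the group collected on day 14 (d14). All 3 groups thus carry an inducible Cre allele, the R26RtdT reporter and tamoxifen. Allele, injury and tamoxifen schedule change together between the uninjured and the Sox9 groups and cannot be told apart. Between the Sox9 groups, time after injury and tamoxifen schedule change together and cannot be told apart, and the marked cells may differ. The comparisons set early Sox9 activation against Sox9 expression on day 14. A rise or fall from 48 h to d14 is thus a difference between groups and not a course followed in the same cells.

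Mitochondria keep a small genome that encodes core subunits of the respiratory chain and of ATP synthase, and a ribosome of their own translates them. The ribosomal RNAs of that ribosome are mitochondrial, but every protein of it is made in the cytosol from a nuclear gene and imported. Proximal tubule cells are among the most mitochondria-rich cells of the body and rely on oxidative phosphorylation to drive reabsorption. Nuclear respiratory factor 1 (NRF1) and the ETS-family factor GABP are the textbook activators of nuclear genes for mitochondrial proteins.

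The members were spread over 17 chromosomes, with at most 11 on any of them. Promoters are shown for the 3 members on which the results turn: Mrpl12, which stood lowest at d14, Mrpl52, which rose at 48 h, and Mrps6, which rose in every comparison. The sequences are the 250 bases upstream of the RefSeq transcription start, 5′ to 3′ on the plus strand of GRCm38.p6. They cover chr11:120484387-120484636, chr14:54426659-54426908 and chr16:92058086-92058335. The windows of Mrpl12 and Mrps6 run past the gene starts given below, which are from GENCODE M21 and lie further upstream. Capitals mark matches on either strand to an NRF1 core, GCGC, then any base, then TGCGC, or to an ETS core, CCGGAAG.
Mrpl12: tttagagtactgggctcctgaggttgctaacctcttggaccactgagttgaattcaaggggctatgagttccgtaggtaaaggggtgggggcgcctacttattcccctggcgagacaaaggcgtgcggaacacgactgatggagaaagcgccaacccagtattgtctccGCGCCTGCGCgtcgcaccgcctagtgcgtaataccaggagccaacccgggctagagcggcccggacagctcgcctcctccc
Mrpl52: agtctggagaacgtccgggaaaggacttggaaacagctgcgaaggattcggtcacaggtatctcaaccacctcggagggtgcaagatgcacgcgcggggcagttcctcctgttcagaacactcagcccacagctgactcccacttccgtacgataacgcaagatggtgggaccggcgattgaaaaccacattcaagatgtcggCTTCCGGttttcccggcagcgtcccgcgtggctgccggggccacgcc
Mrps6: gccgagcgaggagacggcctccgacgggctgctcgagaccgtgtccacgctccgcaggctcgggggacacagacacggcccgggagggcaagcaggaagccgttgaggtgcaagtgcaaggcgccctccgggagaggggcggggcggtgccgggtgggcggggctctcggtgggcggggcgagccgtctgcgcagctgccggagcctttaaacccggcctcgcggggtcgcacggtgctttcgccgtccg
The Mrpl12 window held 1 NRF1 core, the Mrpl52 window 1 ETS core and the Mrps6 window neither. The table held 75 such windows for 69 of the 78 members. The NRF1 core was in 10 of them (13.3%) against 3.74% of all 32851 windows of the same length, and the ETS core in 18 (24.0%) against 6.91%. Either core was in 27 windows (36.0%) against 10.1%, and both were in 1 (1.33%) against 0.557%, and neither core contains the other. The 27 members with a core and the 42 without had median log2 fold changes at d14 against uninjured cells of -0.54 and -0.49, with 22 and 26 of them lower. A match to these letters is a description of the window and not a binding site.

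Total counts per library were 31585507 to 51631204 in the uninjured group, 8036054 to 23794029 at 48 h and 19239354 to 30414758 at d14. Members took 80052 to 135180, 19563 to 57635 and 48279 to 74485 counts, and all 78 passed the filter on low counts. Levels are given as CPM, a gene's counts scaled to a common library size, after TMM scaling, which sets a library's size by the fold changes of most genes. Log2 fold changes carry their SE and come from edgeR's quasi-likelihood test, adjusted by Benjamini-Hochberg over 15519 genes, with a call at adjusted p under 0.05. The labels call the samples biological replicates and do not say that they are separate animals, so p-values measure the spread between these samples. The TMM factors ranged from 0.846 to 0.912 in the 6 uninjured and 48 h libraries and from 1.21 to 1.48 in the d14 ones, so d14 levels depend strongly on the scaling. Genes of the mitochondrial genome, including those that encode no protein, made up a large part of each library. Their share was 25.1 to 29.2% in uninjured libraries, 32.7 to 39.2% at 48 h and 15.2 to 25.2% at d14.

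The family as a whole took overlapping shares of all counts in the 3 groups, but on the TMM scale it stood lower at d14 relative to the typical gene. Its share of raw counts was 0.262, 0.253 and 0.228% in uninjured replicates 1 to 3, 0.236, 0.243 and 0.242% in those of the 48 h group and 0.274, 0.234 and 0.245% in those of the d14 group. The 3 groups overlapped on that scale. After TMM scaling the summed level was 2935, 2810 and 2698 CPM in the uninjured group, 2788, 2812 and 2657 CPM in the 48 h group and 1855, 1911 and 2027 CPM in the d14 group. On this scale every d14 library lay below every other library, while the uninjured and 48 h libraries overlapped. The family share was also taken with the counts of all genes of the mitochondrial genome left out of the total. It was 0.339 ± 0.0149% in the uninjured group, 0.383 ± 0.0209% at 48 h and 0.319 ± 0.0114% at d14 (SD, n = 3 each). By this share the 48 h libraries, from 0.360%, lay above the uninjured ones, up to 0.350%, while the d14 libraries (up to 0.327%) overlapped with the uninjured group (from 0.322%). Fewer cells of a type and less RNA per cell cannot be told apart in such sorted bulk samples.

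**Figure D1:**
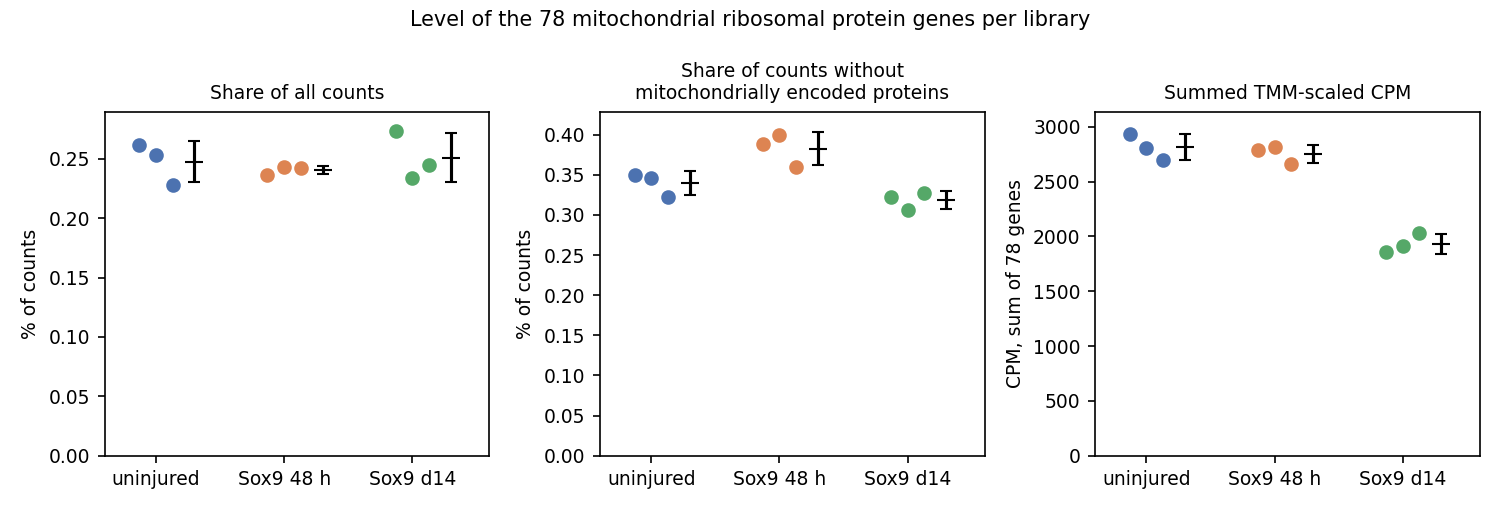
Summed level of the 78 mitochondrial ribosomal protein genes in each of the 9 libraries. The scales are % of all counts (left), % of counts without genes of the mitochondrial genome (middle) and TMM-scaled CPM (right). The middle panel leaves out all genes of that genome, not only the proteins its title names. Points are libraries, and the bar beside them is mean ± SD of 3. The groups overlap in the left panel, whereas in the right panel the d14 libraries (1855 to 2027 CPM) lie below the others (2657 to 2935 CPM).

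Under TMM, 55 of the 78 members were lower at d14 than in uninjured cells and 1 was higher (70.5% and 1.28%), against 20.7% and 25.1% of all genes tested. With library totals alone 5 members were lower and 11 higher, against 9.13% and 47.1% of all genes. The median log2 fold change of the members was -0.51, against 0.06 over all genes tested. In 63 members every d14 library lay below every uninjured library, against 28.9% of all genes, and in 3 every d14 library lay above, against 34.4%. The large subunit held 39 lower of 51 members, with a median of -0.47, and the small subunit 15 lower of 26, with a median of -0.53. These counts place Mrps18a and Mrps30 in the large subunit, where structures of the mammalian ribosome put their proteins. In the large subunit 23 of 30 proteins with a bacterial counterpart and 16 of 21 particular to mitochondria were lower (medians -0.50 and -0.47), and in the small subunit 8 of 16 and 7 of 10 (medians -0.42 and -0.65). Leaving out uninjured replicate 1 lowered the count to 38, the least of any library left out.

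At 48 h the family showed no common direction, with 5 members higher and 6 lower. The share of genes called higher was 17.4% over all genes and 6.41% among members, and the share called lower 11.7% and 7.69%. The median log2 fold change of the members was -0.04, and that of all genes 0.02. In 11 members every 48 h library lay above every uninjured library and in 14 every one lay below, against 21.5% and 20.8% of all genes. The 6 lower calls were not stable when a library was left out. None of the 78 members was called lower without uninjured replicate 1, and 2 were without uninjured replicate 2. The share of all genes called lower was then 7.1% and 8.51%. Without uninjured replicate 1 the log2 fold changes of the 5 lowest stayed negative. They were -0.50 (Mrpl44), -0.54 (Mrpl41), -0.39 (Mrpl2), -0.40 (Mrpl24) and -0.37 (Mrpl9). Without uninjured replicate 2 the number of higher members was 3.

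Between the injured groups, 49 members were lower at d14 than at 48 h and 1 was higher, against 16.3% and 16.8% of all genes. With library totals alone 4 were lower and 10 higher, against 6.02% and 43.9% of all genes. The median log2 fold change was -0.49, and over all genes 0.05. Both comparisons at d14 use the same 3 d14 libraries, so their calls are not independent. In 41 members the call was lower at d14 against both other groups with no call at 48 h. Another 8 were lower against uninjured cells alone, and 15 were called in no comparison. These patterns were counted for the members only, so they do not show whether any pattern is particular to the family. Without d14 replicate 2 the number lower than at 48 h was 34, the least of any library left out.

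**Figure D2:**
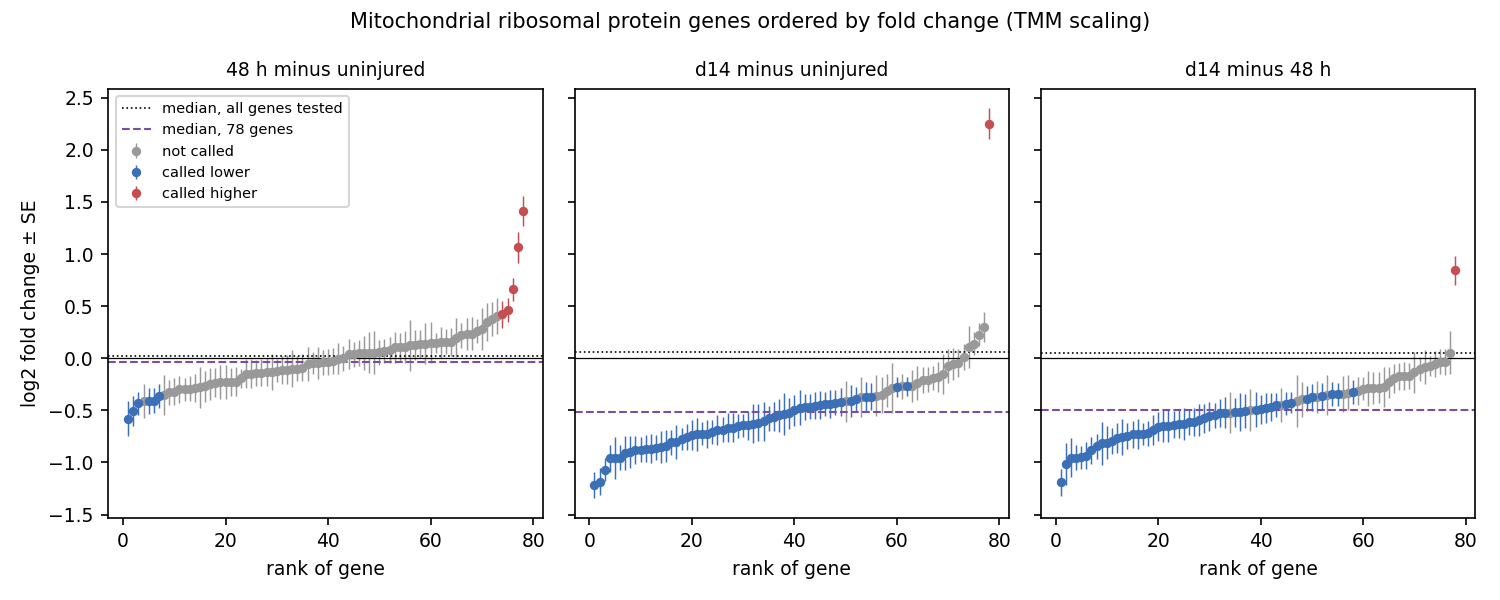
Log2 fold change ± SE of each of the 78 members, ordered within each of the 3 comparisons, under TMM scaling; colour shows the call at adjusted p under 0.05, and lines show the medians of the members and of all genes tested. The members centre near 0 at 48 h (median -0.04) and below 0 in both d14 comparisons (medians -0.51 and -0.49), with Mrps6 as the highest point in each panel.

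The sign of the median member at d14 turned with the scaling. The use of library totals alone raised the median of all genes to 0.63 in both d14 comparisons and left the median member at 0.05 against uninjured cells. Against 48 h the median member was then at 0.09. Of the 55 members lower at d14 against uninjured cells, 5 were still called lower without TMM, and of the 49 against 48 h, 4 were. With RLE, TMMwsp, upper-quartile scaling or TMM without mitochondrially encoded genes, 48 to 56 members were lower against uninjured cells and 51 or 52 against 48 h, with 1 higher in each. Of all genes 19.8 to 23.4% were then lower and 23.2 to 26.4% higher against uninjured cells. Against 48 h 17 to 17.9% were lower and 15.2 to 16.3% higher. A scaling shifts all genes by nearly the same amount, so the distance between the median member and the median of all genes is nearly independent of the scaling by construction. It was -0.574 at d14 against uninjured cells and -0.548 against 48 h under TMM. The set of genes compared does move it: among genes with at least 1 CPM in all 9 libraries it was -0.453 and -0.496. Under TMM, 73 of the 78 members lay below the median of all genes at d14 against uninjured cells, 77 did against 48 h and 43 did at 48 h against uninjured cells. Among genes with at least 1 CPM in all 9 libraries these numbers were 70, 76 and 35. Among the lower members described next, Mrpl9, Mrpl17, Mrpl24, Mrpl58 and Mrps30 had positive log2 fold changes at d14 against uninjured cells with library totals alone. Mrpl2, Mrpl14, Mrpl36, Mrpl41, Mrpl44, Mrps12, Mrps18a, Mrps18b and Mrps21 stayed negative on that scale but were not called (adjusted p = 0.0999 to 0.953).

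**Figure D3:**
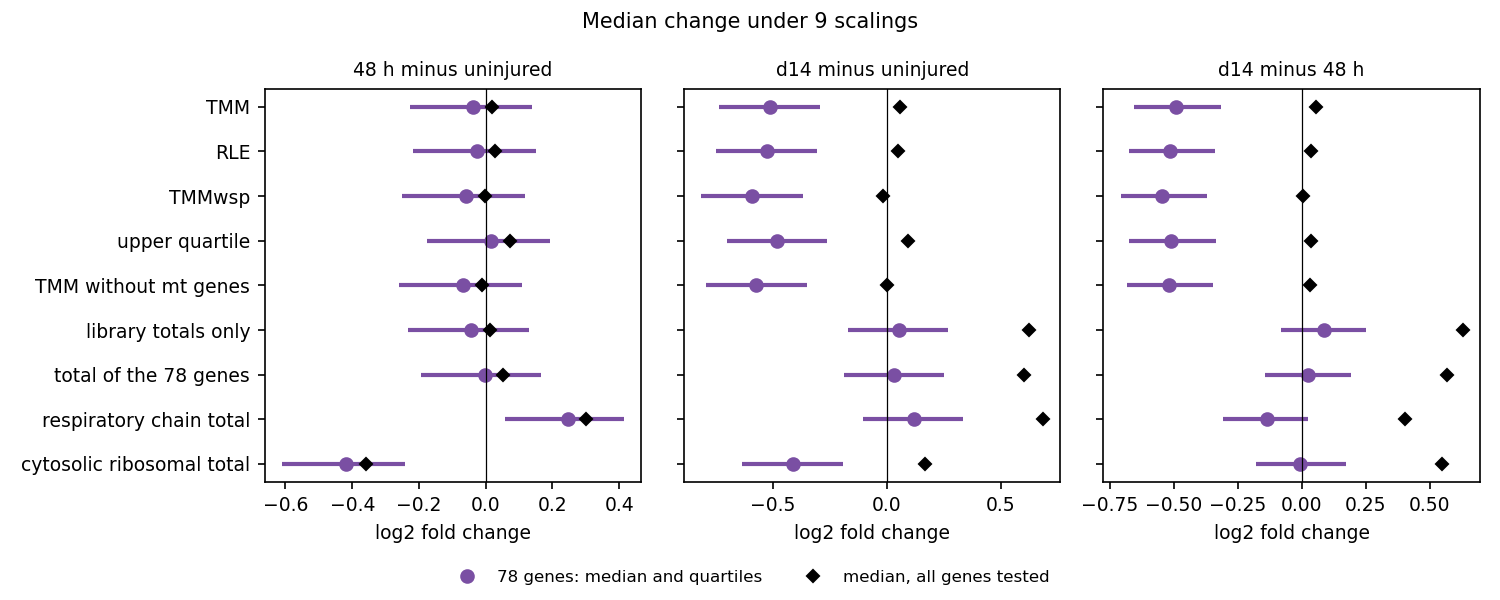
Median log2 fold change of the 78 members (circles, with bars from the lower to the upper quartile of members) and median of all genes tested (diamonds) under 9 scalings in the 3 comparisons. The position of both medians relative to 0 shifts with the scaling. Their distance (-0.568 to -0.575 at d14 against uninjured cells) is nearly fixed by construction, since a scaling moves all genes alike.

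Relative to other gene groups within a library, the family took more counts per count of the nuclear-encoded respiratory chain at 48 h, and fewer per count of the cytosolic ribosome in both injured groups. The lists of other genes were drawn up with earlier results of these data known. Per 100 counts of nuclear respiratory chain genes, members took 16.1, 16.4 and 15.8 counts in uninjured replicates 1 to 3, 18.1, 19.0 and 20.1 in those of the 48 h group and 18.4, 16.4 and 16.3 in those of the d14 group. The 48 h libraries lay above the uninjured ones, and the d14 libraries spanned values from near the uninjured group to within the 48 h group. Per 100 counts of cytosolic ribosomal protein genes, members took 18.1, 16.9 and 17.5 counts in the uninjured group, 13.3, 13.7 and 12.4 in the 48 h group and 11.2, 14.3 and 13.3 in the d14 group. Both injured groups lay below the uninjured group on that scale. Per 100 counts of mitochondrially encoded proteins, members took 1.06, 0.969 and 0.796 counts in the uninjured group, 0.624, 0.634 and 0.771 in the 48 h group and 1.84, 1.04 and 0.992 in the d14 group. The 48 h group lay lowest on that scale, and the d14 and uninjured groups overlapped.

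**Figure D4:**
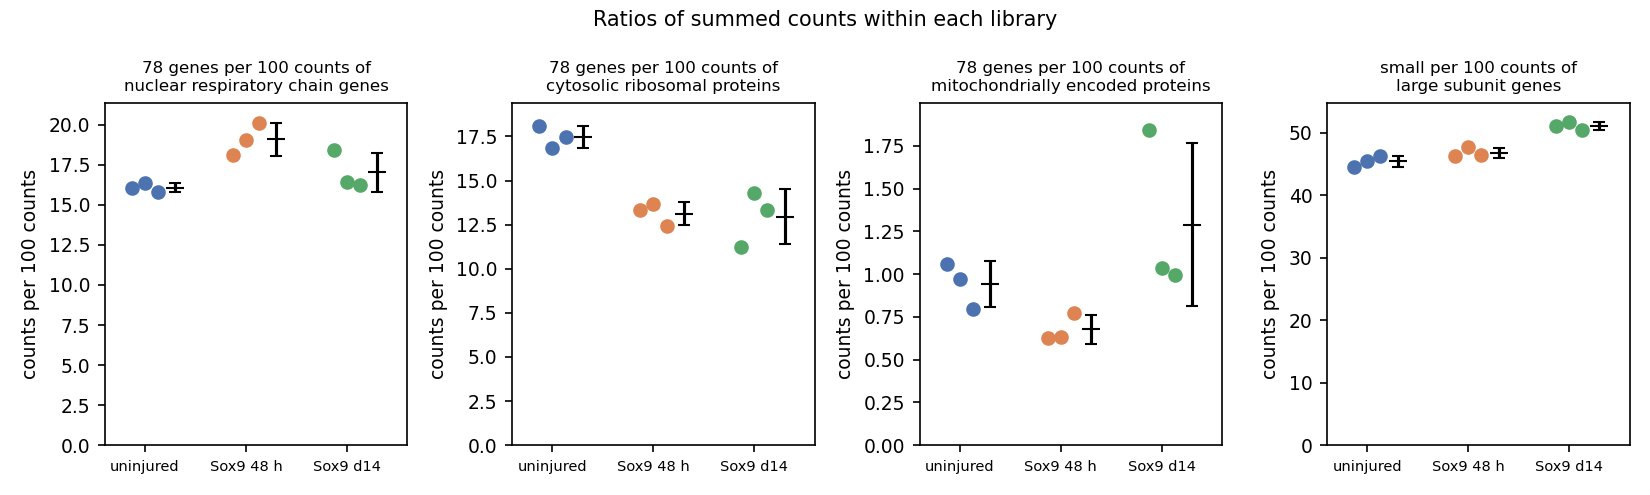
Summed counts of the 78 members per 100 counts of 3 other gene groups, and of small per 100 counts of large subunit members, in each library; points are libraries and bars are mean ± SD of 3. The ratio to cytosolic ribosomal proteins is lower in both injured groups (11.2 to 14.3) than in uninjured libraries (16.9 to 18.1), and the ratio to respiratory chain genes is highest at 48 h (18.1 to 20.1 in 3 libraries), with d14 replicate 1 at 18.4 within that range.

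The balance of the subunits shifted at d14. Small subunit members took 44.5 to 46.2 counts per 100 counts of large subunit members in uninjured libraries, 46.3 to 47.8 at 48 h and 50.5 to 51.7 at d14. Most of that shift was Mrps6. Without it the ratios were 43.9 to 45.6, 44.6 to 45.8 and 45.9 to 47.2, so that the d14 libraries still lay above the others, but by less.

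Mrps6, which encodes a small subunit protein with a bacterial counterpart, went against the family. Its level was 13.7, 11.7 and 10.9 CPM in uninjured replicates 1 to 3, 27.3, 37.8 and 31.8 CPM in those of the 48 h group and 55.7, 56.3 and 61.01 CPM in those of the d14 group. The 3 groups did not overlap. Its log2 fold change was 1.41 ± 0.14, adjusted p = 4.93e-05 at 48 h, and 2.25 ± 0.14, adjusted p = 4.89e-07 at d14 against uninjured cells. From 48 h to d14 it rose by 0.84 ± 0.14 (adjusted p = 0.0012). It was higher in all 3 comparisons under each of the 9 scalings and without any single library. Mrps6 lies on chromosome 16 from 92058270 to 92112227 (GRCm38, plus strand). There it shares its start region with Slc5a3, a gene for the osmolyte transporter of myo-inositol that was chosen for mention after its values were seen. The annotated starts in RefSeq lie 14 bases apart, and 159 exon bases are common to both genes on the same strand. Slc5a3 was at 9.18 ± 0.692 CPM in uninjured cells, 70.8 ± 9.68 CPM at 48 h and 131 ± 14.7 CPM at d14. Slc5a3 thus rose by 2.94 at 48 h and by 3.84 at d14 on the log2 scale (adjusted p = 5.02e-07 and 2.37e-08). Reads in the shared exon cannot be assigned to either gene with certainty, and their part in the rise of Mrps6 was not tested.

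The other members that were higher at 48 h were Mrpl33, Mrpl52, Mrps25 and Mrps16. Mrpl33, a small large-subunit protein with a bacterial counterpart, was at 16.4, 12.6 and 15.3 CPM in uninjured replicates 1 to 3, 29.8, 31.3 and 31.6 CPM in those of the 48 h group and 18.3, 20.4 and 15.9 CPM in those of the d14 group. Its 48 h libraries lay apart from both other groups, with log2 fold changes of 1.06 ± 0.15, adjusted p = 0.000368 against uninjured cells and -0.77 ± 0.15, adjusted p = 0.00264 at d14 against 48 h. Mrpl52, a large subunit protein with no bacterial counterpart, was at 20.8, 20.8 and 20.0 CPM in uninjured replicates 1 to 3, 30.4, 34.3 and 32.8 CPM in those of the 48 h group and 25.2, 22.4 and 24.5 CPM in those of the d14 group. All 3 groups lay apart, with a log2 fold change of 0.66 ± 0.11, adjusted p = 0.00142 at 48 h, while 24.0 ± 1.46 CPM at d14 against 20.5 ± 0.471 CPM in uninjured cells gave an adjusted p of 0.121. From 48 h to d14 Mrpl52 fell by 0.44 ± 0.11 on the log2 scale (adjusted p = 0.0132), a call lost without d14 replicate 2 (adjusted p = 0.0585). Mrps25 was at 39.7 ± 1.75, 54.8 ± 6.61 and 43.7 ± 2.00 CPM (48 h against uninjured 0.46 ± 0.11, adjusted p = 0.0107), and without uninjured replicate 2 its adjusted p was 0.0506. Mrps16 was at 20.3 ± 1.259, 27.2 ± 3.59 and 19.7 ± 0.873 CPM (48 h against uninjured 0.42 ± 0.13, adjusted p = 0.0349). The Mrps16 call at 48 h was lost when any library other than 48 h replicate 1 was left out, with adjusted p from 0.0508 to 0.129. Mrpl33 shares 261 exon bases with a gene on the same strand, Gm43809, which had counts only in d14 replicate 3, at 0.272 CPM. Mrps25 shares 4590 exon bases with Nr2c2 on the opposite strand, which was at 33.8, 19.3 and 34.9 CPM in the 3 groups. The part of such overlaps was not tested.

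**Figure D5:**
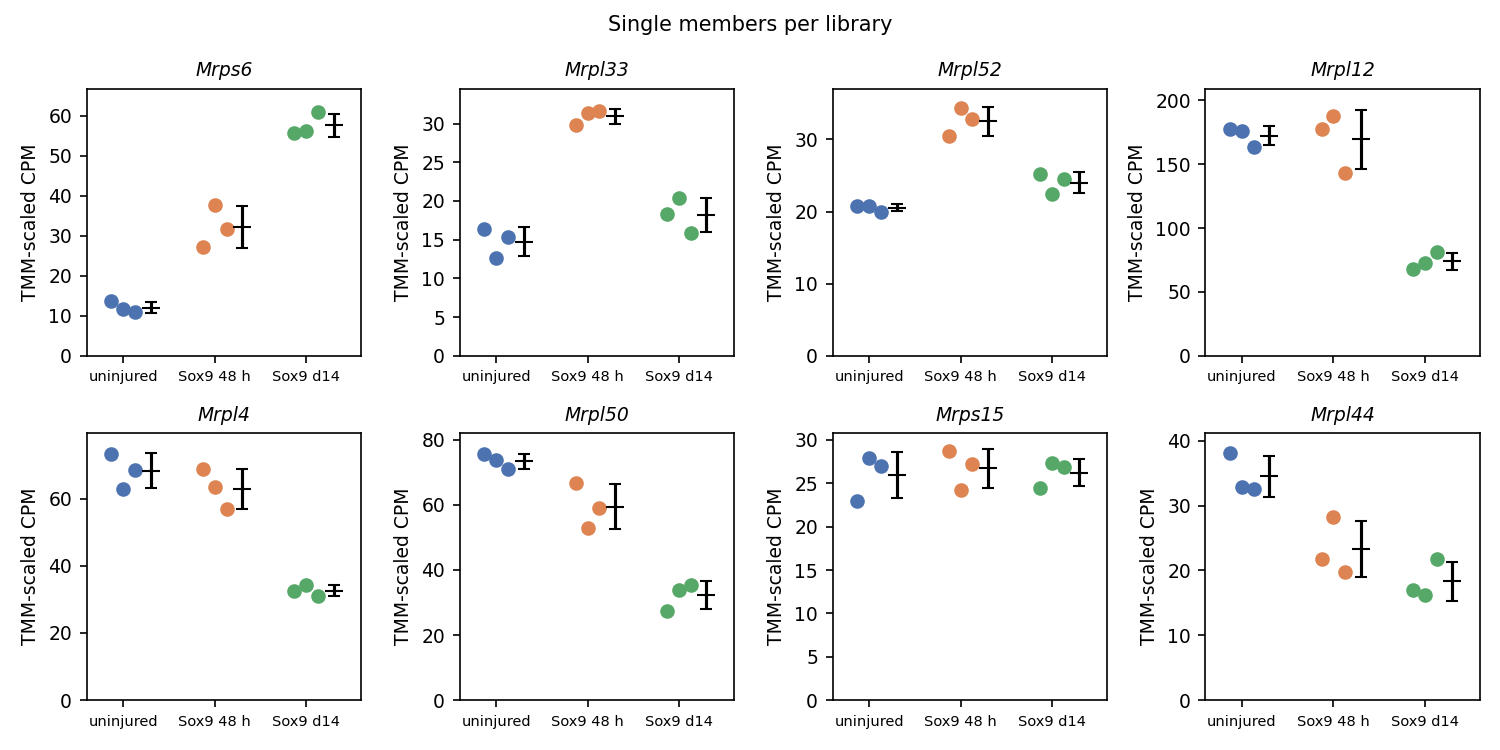
TMM-scaled CPM of 8 members in each library; points are libraries and bars are mean ± SD of 3. Mrps6 rises through the groups (12.1, 32.3 and 57.7 CPM), Mrpl33 and Mrpl52 peak at 48 h, Mrpl12, Mrpl4 and Mrpl50 are lowest at d14, Mrps15 is level near 26 CPM on this scale, and Mrpl44 is lower in both injured groups.

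The 5 lowest members among those called at 48 h were all large subunit genes. Mrpl44, whose protein has a ribonuclease III-like fold, was at 38.0, 32.8 and 32.6 CPM in uninjured replicates 1 to 3, 21.8, 28.2 and 19.8 CPM in those of the 48 h group and 17.0, 16.3 and 21.7 CPM in those of the d14 group. Both injured groups lay below the uninjured group, with log2 fold changes of -0.58 ± 0.17, adjusted p = 0.0228 at 48 h and -0.91 ± 0.16, adjusted p = 0.000872 at d14. Mrpl44 shares 126 exon bases with Wdfy1 on the opposite strand. Wdfy1 was at 37.0 ± 21.7, 15.7 ± 6.69 and 13.1 ± 2.82 CPM in uninjured, 48 h and d14 cells, and its part in the Mrpl44 counts was not tested. Mrpl41 had a log2 fold change of -0.51 (adjusted p = 0.0224) at 48 h, and Mrpl2, whose bacterial counterpart lies near the peptidyl transferase centre, -0.43 (adjusted p = 0.0135). Mrpl24 and Mrpl9 had log2 fold changes at 48 h of -0.41 and -0.41 (adjusted p = 0.0256 and 0.0284). Without uninjured replicate 1 the adjusted p was 0.0917 for Mrpl44, 0.0565 for Mrpl41, 0.0627 for Mrpl2, 0.0773 for Mrpl24 and 0.108 for Mrpl9. Other single libraries that ended a call were uninjured replicate 2 for Mrpl41, Mrpl24 and Mrpl9, uninjured replicate 3 for Mrpl41, 48 h replicate 1 for Mrpl44 and Mrpl9, 48 h replicate 2 for Mrpl24 and Mrpl9, and 48 h replicate 3 for Mrpl41 and Mrpl44. At d14 all 5 were lower than in uninjured cells, and under TMM over all 9 libraries none of them differed between 48 h and d14. Other scalings did call some. Mrpl2 was lower at d14 than at 48 h under RLE, TMMwsp, upper-quartile scaling and TMM without mitochondrially encoded genes (adjusted p = 0.0324 to 0.0461). With library totals alone Mrpl24 and Mrpl9 were higher at d14 than at 48 h (0.54 and 0.51, adjusted p = 0.0107 and 0.0139).

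Mrpl12 had the lowest log2 fold change of the family at d14. Its protein forms the flexible stalk of the large subunit that recruits translation factors, and in human cells it also binds the mitochondrial RNA polymerase. Mrpl12 was at 177, 176 and 163 CPM in uninjured replicates 1 to 3, 177, 187 and 143 CPM in those of the 48 h group and 68.1, 72.8 and 81.2 CPM in those of the d14 group. The uninjured and 48 h libraries overlapped and every d14 library lay below them, with log2 fold changes of -1.22 ± 0.13, adjusted p = 1.63e-05 against uninjured cells and -1.19 ± 0.13, adjusted p = 8.59e-05 against 48 h. It lies on chromosome 11 from 120484613 to 120489065 (plus strand).

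Mrpl4 and Mrpl50 followed it. Mrpl4, whose bacterial counterpart lines the exit tunnel, was at 73.4, 63.0 and 68.6 CPM in uninjured replicates 1 to 3, 68.7, 63.4 and 56.8 CPM in those of the 48 h group and 32.5, 34.2 and 30.9 CPM in those of the d14 group. Mrpl50, a protein with no bacterial counterpart, was at 75.5, 73.7 and 70.9 CPM in uninjured replicates 1 to 3, 66.7, 52.9 and 58.9 CPM in those of the 48 h group and 27.4, 33.9 and 35.5 CPM in those of the d14 group. In both genes the d14 libraries lay below all others, with log2 fold changes against uninjured cells of -1.07 ± 0.11, adjusted p = 1.63e-05 for Mrpl4 and -1.18 ± 0.13, adjusted p = 2.06e-05 for Mrpl50. Mrps35 and Mrpl14 completed the 5 lowest at d14, at -0.96 ± 0.13, adjusted p = 0.000111 for Mrps35 and -0.96 ± 0.20, adjusted p = 0.00219 for Mrpl14. Mrpl14 and Mrpl36 were, with Mrpl12, lowest against 48 h, at -1.01 ± 0.20, adjusted p = 0.00345 and -0.95 ± 0.19, adjusted p = 0.00324. Against uninjured cells Mrpl36 was at -0.61 ± 0.19, adjusted p = 0.0197, a call lost without uninjured replicate 1, d14 replicate 2 or d14 replicate 3 (adjusted p = 0.084, 0.0806 and 0.0735).

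Some members have roles apart from the body of the ribosome. Mrps36, named as a small subunit protein, is known as a component of the 2-oxoglutarate dehydrogenase complex (KGD4). It was at 42.5, 37.8 and 37.8 CPM in uninjured replicates 1 to 3, 43.4, 35.8 and 38.6 CPM in those of the 48 h group and 18.4, 20.9 and 21.6 CPM in those of the d14 group. The uninjured and 48 h libraries overlapped and the d14 libraries lay below, with log2 fold changes of -0.95 ± 0.12, adjusted p = 6.76e-05 against uninjured cells and -0.95 ± 0.12, adjusted p = 0.000239 against 48 h. Mrpl58, a peptidyl-tRNA hydrolase that frees stalled mitochondrial ribosomes, was at 31.9 ± 1.53, 30.1 ± 4.26 and 23.1 ± 1.37 CPM in the 3 groups (d14 against uninjured -0.47 ± 0.13, adjusted p = 0.0104). Mrps12, the counterpart of a bacterial protein of the decoding centre, was at 31.1 ± 2.07, 26.4 ± 3.73 and 18.8 ± 3.66 CPM (d14 against uninjured -0.73 ± 0.16, adjusted p = 0.00328). Both calls against uninjured cells held when any single library was left out. With library totals alone the sign turned for Mrpl58, and Mrps12 was not called (-0.15, adjusted p = 0.578). Against 48 h their adjusted p values were 0.0423 and 0.0356, and 7 and 6 of the 9 single libraries ended the respective call when left out.

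The Mrps18 genes encode 3 related proteins that sit at different places in the ribosome. Mrps18a, whose protein belongs to the large subunit, was at 44.7 ± 1.62, 40.2 ± 3.96 and 28.1 ± 5.03 CPM in uninjured, 48 h and d14 cells (d14 against uninjured -0.67 ± 0.14, adjusted p = 0.00224). Mrps18b was at 34.1 ± 3.87, 35.1 ± 4.78 and 21.1 ± 2.32 CPM (d14 against uninjured -0.69 ± 0.14, adjusted p = 0.00224). Both were lower at d14. Mrps18c was at 15.8 ± 0.949, 17.5 ± 3.71 and 12.3 ± 2.40 CPM with an adjusted p of 0.157 at d14, although every d14 library lay below every uninjured one. Mrps18c shares 250 exon bases with another gene on the same strand, Gm43511. Mrps30, the other large subunit protein with an Mrps symbol, was at 26.2 ± 1.12, 24.0 ± 3.46 and 19.2 ± 0.795 CPM (d14 against uninjured -0.45 ± 0.13, adjusted p = 0.0165), and without uninjured replicate 1 or d14 replicate 1 its adjusted p was 0.0584 or 0.0629.

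With the total of the 78 genes as the library size, the fit shows which members moved apart from the family. Then 14 members were higher and 9 lower at d14 than in uninjured cells, against 47.8% and 9.58% of all genes under that scaling. Mrps6 (2.80 ± 0.14), Mrpl33 (0.85 ± 0.16) and Mrpl52 (0.77 ± 0.12) had the largest log2 fold changes on this scale. Their adjusted p values were 4.64e-08, 0.000866 and 0.000271. Mrpl12 (-0.68 ± 0.11), Mrpl50 (-0.64 ± 0.12) and Mrpl4 (-0.52 ± 0.11) had the lowest, with adjusted p values of 0.000374, 0.000969 and 0.00242. Relative to the family total, the former 3 were thus higher and the latter 3 lower. Mrps15 was level under TMM (-0.03 ± 0.13, adjusted p = 0.864 at d14 against 48 h) and higher relative to the family (0.48 ± 0.14, adjusted p = 0.0154). At 48 h 5 members were higher and 5 lower relative to the family total, against 17.7% and 10.1% of all genes, the extremes being Mrps6 (1.45 ± 0.14) and Mrpl44 (-0.55 ± 0.15). From 48 h to d14, 7 were higher and 7 lower, against 42.4% and 6.71% of all genes.

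Levels between genes were compared per kilobase of the principal transcript. Across the members, the mean over the 9 libraries ran from 3.10 CPM per kb in Mrpl47 to 123 CPM per kb in Mrps21. Next to Mrps21 stood Mrpl42 (107 CPM per kb) and Mrpl12 (105 CPM per kb), and next to Mrpl47 stood Mrpl19 (3.34 CPM per kb) and Mrpl17 (4.17 CPM per kb). The order at the ends depends on which exons are counted as length: per kilobase of all annotated exons together, Mrpl12, Mrps21 and Mrpl34 stood highest and Mrpl48, Mrpl47 and Mrps10 lowest. Mrps21 was lower at d14 than in uninjured cells (-0.85 ± 0.16, adjusted p = 0.000932), whereas Mrpl42 was at 61.2 ± 2.50 against 69.8 ± 4.72 CPM (adjusted p = 0.202). Mrpl17 was lower at d14 (-0.43 ± 0.12, adjusted p = 0.0132), a call lost without uninjured replicate 1 (adjusted p = 0.0543). Mrpl19 and Mrpl47 passed the test in no comparison.

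Of the 5 mitoribosomal subunit genes that carry another symbol, none was lower at d14 than in uninjured cells with library totals alone (9.13% of all genes). Under TMM 3 were lower (20.7% of all genes). They were Ptcd3 (-0.65 ± 0.16, adjusted p = 0.00615), Gadd45gip1 (-0.62 ± 0.14, adjusted p = 0.00427) and Dap3 (-0.45 ± 0.15, adjusted p = 0.0327). The Dap3 call was lost without uninjured replicate 1 or 2 or d14 replicate 1 or 2 (adjusted p = 0.101, 0.0671, 0.131 and 0.0837). Aurkaip1 was at 27.3 ± 3.71 against 34.8 ± 1.57 CPM (adjusted p = 0.0637, and 0.0362 or 0.0385 without 48 h replicate 2 or d14 replicate 3). Chchd1 was the only one higher at 48 h (0.50 ± 0.15, adjusted p = 0.0254), a call lost without uninjured replicate 2 or 48 h replicate 3 (adjusted p = 0.0937 and 0.0681), and it was lower at d14 than at 48 h (-0.72 ± 0.15, adjusted p = 0.00396).

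Genes that build and serve the mitochondrial ribosome were often lower at d14 under TMM. In numbers, 11 of 28 assembly factors, 12 of 15 translation factors and 10 of 17 mitochondrial aminoacyl-tRNA synthetases were lower than in uninjured cells. So were 7 of 10 genes of mitochondrial transcription and RNA processing, and none in the 4 lists was higher. Of all genes 20.7% were lower and 25.1% higher. The median log2 fold changes of the 4 lists were -0.40, -0.77, -0.55 and -0.61, beside 0.06 for all genes. Without TMM the numbers lower were 1, 2, 1 and 0, against 9.13% of all genes. The numbers higher were then 5, 1, 1 and 2, against 47.1% of all genes. Examples lower at d14 were Rpusd3, a pseudouridine synthase family gene (-1.81 ± 0.18, adjusted p = 1.38e-05), Rars2, the mitochondrial arginyl-tRNA synthetase (-1.32 ± 0.12, adjusted p = 6.22e-06), and Mtg2, a GTPase of large subunit assembly (-1.10 ± 0.19, adjusted p = 0.000802). Lrpprc and Slirp, whose proteins form a complex that stabilises mitochondrial messenger RNAs, were at -0.88 ± 0.13 and -0.87 ± 0.14 on the log2 scale (adjusted p = 0.000186 and 0.000346). At 48 h 5, 5, 3 and 2 genes of the 4 lists were lower and none was higher, against 11.7% and 17.4% of all genes. Without uninjured replicate 1 the numbers lower were 3, 2, 2 and 0, against 7.1% of all genes.

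Of 76 nuclear genes of the respiratory chain, 66 were lower at d14 than in uninjured cells and none higher under TMM, with a median of -0.57. Of all genes 20.7% were lower and 25.1% higher. With library totals alone 9 were lower and 2 higher, against 9.13% and 47.1% of all genes. At 48 h 20 were lower, against 11.7% of all genes. Without uninjured replicate 1, uninjured replicate 2 or 48 h replicate 3 the number was 8, 13 or 10. Of all genes 7.1%, 8.51% or 8% were then lower. Ndufs1, a complex I subunit with iron-sulfur clusters, was at 214 ± 11.2, 136 ± 1.41 and 111 ± 12.3 CPM and was lower at 48 h (-0.66 ± 0.11, adjusted p = 0.00137) and at d14 (-0.94 ± 0.11, adjusted p = 4.3e-05). Ndufab1, the mitochondrial acyl carrier protein, was lower at d14 (-0.90 ± 0.11, adjusted p = 7.45e-05) and not called at 48 h (adjusted p = 0.494). Of the 13 mitochondrially encoded proteins, 10 were lower at d14 than in uninjured cells under TMM, against 20.7% of all genes. At 48 h 2 were higher, against 17.4% of all genes. With library totals alone 3 were lower at d14, against 9.13% of all genes. Without uninjured replicate 1 or 3 the number lower at d14 was 6, and the number higher at 48 h was 1 without uninjured replicate 1 and 5 without d14 replicate 1. One of the genes higher at 48 h was mt-Co2, a cytochrome c oxidase subunit (1.204 ± 0.28, adjusted p = 0.00817 at 48 h), and mt-Nd3, a complex I subunit, was lower at d14 (-1.47 ± 0.26, adjusted p = 0.000735).

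Cytosolic ribosomal protein genes took another course. At 48 h 49 of 77 were higher than in uninjured cells and none was lower, with a median log2 fold change of 0.39. Of all genes 17.4% were higher and 11.7% lower. With library totals alone 22 were higher at 48 h, where 16% of all genes were, and with a replicate block 33 were, where 14.7% of all genes were. Compared with uninjured cells, 1 was higher at d14 (Rpl12, named after its values were seen) and 8 were lower under TMM. Of all genes 25.1% and 20.7% were. With library totals alone 57 were higher and none lower, against 47.1% and 9.13% of all genes. The Rpl12 call was lost without any single uninjured library or without d14 replicate 1 or 3, and the number lower was 4 or 5 without uninjured replicate 1 or 2 or d14 replicate 2 or 3. Against 48 h 66 were lower at d14 under TMM and none with library totals alone, where 16.3% and 6.02% of all genes were. Without d14 replicate 2 the number lower under TMM was 35, where 11.9% of all genes were. The number higher at 48 h was 22, 30 and 20 without uninjured replicates 1, 2 and 3, and 25 without 48 h replicate 3. Relative to the total of those genes, 36 of the 78 mitochondrial members were lower and 2 higher at 48 h, against 31.9% and 12.5% of all genes under that scaling. At d14 35 were lower and 1 higher than in uninjured cells, against 16.0% and 27.0% of all genes.

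Transcription factors and coactivators of mitochondrial genes did not follow a common direction. Of 9 tested, 1 was higher and 2 were lower at d14 against uninjured cells under TMM, where 25.1% and 20.7% of all genes were. With library totals alone 6 were higher and 1 lower, where 47.1% and 9.13% of all genes were. Esrra, an orphan nuclear receptor that activates respiratory genes, was at 113, 131 and 115 CPM in uninjured replicates 1 to 3, 133, 80.9 and 83.1 CPM in those of the 48 h group and 53.5, 64.1 and 62.5 CPM in those of the d14 group. Its d14 libraries lay below the others (d14 against uninjured -0.99 ± 0.18, adjusted p = 0.000964). Gabpa, the DNA-binding subunit of GABP, was lower at 48 h (-0.66 ± 0.13, adjusted p = 0.00379) and at d14 (-0.51 ± 0.13, adjusted p = 0.00806), with the sign at d14 turned by library totals alone. Pprc1, a coactivator of the PGC-1 family, was higher at 48 h (0.89 ± 0.24, adjusted p = 0.0181) and at d14 (0.77 ± 0.24, adjusted p = 0.0203). Both Pprc1 calls were lost without any single uninjured library, and also without 48 h replicate 3 (48 h, adjusted p = 0.0681) or d14 replicate 1 (d14, adjusted p = 0.108). Ppargc1a, the coactivator PGC-1α, was at 45.8, 46.8 and 58.0 CPM in uninjured replicates 1 to 3, 43.1, 45.7 and 28.8 CPM in those of the 48 h group and 57.8, 75.2 and 73.3 CPM in those of the d14 group. It was higher at d14 than at 48 h (0.82 ± 0.18, adjusted p = 0.00608) and not called against uninjured cells (adjusted p = 0.0569, and 0.0204 to 0.0436 without 48 h replicate 2 or 3, d14 replicate 1 or uninjured replicate 3). Nrf1 was at 12.8 ± 1.10, 13.6 ± 2.38 and 15.7 ± 1.43 CPM and Myc, an activator of ribosome synthesis, at 5.63 ± 0.302, 14.3 ± 9.45 and 13.6 ± 6.07 CPM, and neither was called. Myc was called at d14 without 48 h replicate 1 or 3 or d14 replicate 3 (adjusted p = 0.00944, 0.0166 and 0.0341), and at 48 h without 48 h replicate 1 (adjusted p = 0.00503).

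Levels of cell type markers also changed between the groups. Under TMM, proximal tubule markers had already fallen at 48 h against uninjured cells (median log2 fold change -1.16), where the median member stood at -0.04. By d14 both medians were negative against uninjured cells (-2.24 for the markers and -0.51 for the members). Summed proximal tubule markers were at 17140 to 19335 CPM in uninjured libraries, 6262 to 11785 CPM at 48 h and 3258 to 4417 CPM at d14, with 8 of 10 lower at 48 h and 10 of 10 at d14. Of all genes 11.7% and 20.7% were lower. Summed markers of the collecting duct and distal tubule were at 231 to 329, 1267 to 1361 and 4983 to 8576 CPM, with 9 of 9 higher at d14. Of all genes 25.1% were higher at d14 and 17.4% at 48 h. At 48 h all 4 neutrophil markers tested of 6 and 5 of 8 macrophage and monocyte markers were higher, with summed levels of 82.9 to 282 and 99.6 to 351 CPM against 2.52 to 7.65 and 27.8 to 32.1 CPM in uninjured libraries. At d14 5 of 8 macrophage and monocyte markers were also higher than in uninjured cells, with summed levels of 63.8 to 134 CPM, while neutrophil markers summed to 1.90 to 4.83 CPM. The neutrophil marker Ly6g was at 0 in the uninjured libraries. Summed endothelial markers were at 49.0 to 92.1, 44.6 to 399 and 18.8 to 34.2 CPM, and fibroblast and pericyte markers at 4.99 to 10.99, 1.15 to 4.15 and 9.86 to 19.1 CPM. Against uninjured cells 0 of 6 endothelial markers were called at 48 h or d14. Of the fibroblast and pericyte markers 0 of 6 were called at 48 h, and 2 were higher at d14. Of the selecting genes, Sox9 was at 0.0351 to 0.635, 7.57 to 22.1 and 28.8 to 38.8 CPM, and Slc34a1 at 4626 to 4807, 1147 to 4404 and 994 to 1653 CPM. The part of these cell types in the levels of the ribosomal members was not tested.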

How the data were processed

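Polyadenylated RNA was sequenced from 9 libraries of sorted kidney cells. The deposited table holds RSEM expected counts per gene as whole numbers, unscaled. The submitters' processing notes list RSEM 1.2.28 and STAR 2.6.1 among their tools, beside DESeq2 1.26.0, bcl2fastq 2.20 and R 3.6.3, with no roles stated, and the builds GRCh38 and mm10. The sources used here do not name the annotation counted or say whether strand was used, so reads of members that overlap an antisense gene (28) or a gene on the same strand (8) may not be separated. All 92 spike-in rows were at 0 and left out. Gene positions and transcript lengths are from GENCODE M21 (GRCm38), 1-based.

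The analysis used edgeR 4.0.16 (R 4.3.3): filterByExpr (minimum count 10, minimum total 15), TMM, a mean per group, robust quasi-likelihood fit over all 9 libraries, F-tests, Benjamini-Hochberg over 15519 genes and a call at adjusted p under 0.05. Each SE was taken as the absolute log2 fold change divided by sqrt(F). Alternatives were other scalings and filters, DESeq2 1.42.0, limma 3.58.1, fits to 2 groups, a replicate block and each library left out in turn. Replicate numbers do not pair libraries.

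The members, the other gene lists and the alternatives were chosen with earlier results of these data known. Named are the called members with the 5 largest and 5 smallest fold changes per comparison, those that moved most apart from the family total, the 3 highest and lowest per kilobase, members with other roles, and up to 3 called genes per other list and comparison. Not all genes so chosen are mentioned.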

Additional observations from a re-analysis of the deposited data

Results flagged for a closer look

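The change from uninjured cells differed between 48 h and d14 in 19 of the members named in the text, by edgeR's test of the d14 libraries against the 48 h libraries. The log2 fold changes between the injured groups were lowest in Mrpl12 (-1.19), Mrpl14 (-1.01), Mrpl36 (-0.95), Mrps36 (-0.95), Mrpl4 (-0.95), Mrpl50 (-0.89). They were intermediate in Mrps21 (-0.81), Mrpl33 (-0.77), Mrps18b (-0.73), Mrps35 (-0.64), Mrps18a (-0.52), Mrps12 (-0.50). They were nearest to 0 in Mrps16 (-0.46), Mrpl42 (-0.45), Mrpl52 (-0.44), Mrpl17 (-0.39), Mrpl58 (-0.38), Mrps25 (-0.32). Mrps6 alone among the 19 was higher at d14 (0.84). Across all members 49 were lower and 1 was higher. With library totals in place of TMM 4 were lower and 10 higher (6.02% and 43.9% of all genes). The differences nearest to 0, and those of Mrps12 and Mrps18a, then turned positive. Mrpl14, Mrpl36, Mrpl50, Mrps21, Mrpl33, Mrps18b and Mrps35 stayed negative with library totals but were not called (adjusted p = 0.0513 to 0.687). Single libraries ended some of the calls under TMM. Without uninjured replicate 1 or 3, either of 48 h replicates 2 and 3 or any d14 library, the adjusted p was 0.05004 to 0.09801 for Mrpl17 and 0.06143 to 0.1349 for Mrpl58. Without those uninjured libraries, 48 h replicate 1 or 2 or any d14 library it was 0.0663 to 0.138 for Mrps25. For Mrps12, the third 48 h library, the first 48 h library, d14 replicates 2 and 3 and the same uninjured pair each ended the call, with adjusted p from 0.0527 to 0.14. It was 0.05325 to 0.07835 for Mrps16 without 48 h replicate 2 or any d14 library, 0.05109 to 0.06682 for Mrps18a without 48 h replicate 3 or d14 replicate 1 or 2, and 0.05848 for Mrpl52 without d14 replicate 2.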

How the results depend on the processing

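For the 78 members, RLE, DESeq2, limma, fits to 2 groups and no filter on low counts kept the numbers of calls within 1.5 times and the medians within the spread between replicates of the values reported. The medians moved beyond that spread to -0.5903 (TMMwsp) and -0.5721 (TMM without mitochondrially encoded genes) at d14 against uninjured cells, to -0.5465 (TMMwsp) against 48 h and to 0.01605 (upper quartile) at 48 h. Requiring 1 CPM in every library gave 3 lower members at 48 h (median 0.03079), where 12.9% of all genes were lower. At d14 against uninjured cells it gave 2 higher members (median -0.4529), where 25.4% of all genes were higher. With library totals alone there were 2 lower members at 48 h, where 10.5% of all genes were lower. At d14 against uninjured cells there were 11 higher and 5 lower (median 0.05321), beside 47.1% and 9.13% of all genes. Against 48 h there were 10 higher and 4 lower (median 0.08783), beside 43.9% and 6.02%. With the total of the 78 genes, 14 were higher and 9 lower at d14 against uninjured cells (median 0.03284), beside 47.8% and 9.58% of all genes. Against 48 h 7 were higher and 7 lower (median 0.02258), beside 42.4% and 6.71%. With the respiratory chain total, 13 members were higher and 0 lower at 48 h (median 0.2472), beside 23.9% and 4.79% of all genes. At d14 against uninjured cells 15 were higher and 5 lower (median 0.1193), beside 50% and 8.31%. Against 48 h 11 were lower (median -0.1357), beside 8.02% of all genes. With the cytosolic ribosomal total, 2 members were higher and 36 lower at 48 h (median -0.4177), beside 12.5% and 31.9% of all genes. At d14 against uninjured cells 35 were lower (median -0.4094), beside 16% of all genes. Against 48 h 6 were higher and 5 lower (median -0.009076), beside 39.7% and 6.08%. These settings divide by another quantity, and beyond that the cause was not tested.

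With 1 library left out, members numbered 3 to 5 higher and 0 to 6 lower at 48 h (median -0.06543 to -0.009931). Of all genes 12.3 to 17.2% were then higher and 7.1 to 12.1% lower. At d14 against uninjured cells 1 was higher and 38 to 56 lower (median -0.5573 to -0.4588), beside 19.9 to 26.9% and 16 to 21.6% of all genes. Against 48 h 1 was higher and 34 to 50 lower (median -0.529 to -0.4539), beside 11 to 15.3% and 11.2 to 16.1%. Samples with the same replicate number did not deviate together (the correlation was -0.112 in the pair farthest from 0), so the numbers do not pair them. A replicate block gave 4 higher and 4 lower at 48 h, beside 14.7% and 9.85% of all genes. It gave 1 and 49 at d14 against uninjured cells, beside 23.2% and 19.4%, and 1 and 42 against 48 h, beside 14.7% and 13.7%.

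Some named genes changed direction, in log2 fold change. At d14 against uninjured cells, library totals alone gave Mrps16 0.5187, Mrpl24 0.1204, Mrpl9 0.09648, Mrpl58 0.09212, Mrps30 0.1106, Mrpl42 0.3713, Mrpl17 0.1376, Dap3 0.09421, Gabpa 0.05718. At d14 against uninjured cells, the total of the 78 genes as library size gave Mrps16 0.4988, Mrpl24 0.1046, Mrpl9 0.07832, Mrpl58 0.07498, Mrps30 0.0937, Mrpl42 0.3542, Mrpl17 0.1174, Dap3 0.08657, Gabpa 0.03542. At d14 against uninjured cells, the respiratory chain total gave Mrps16 0.5822, Mrpl24 0.1866, Mrpl9 0.1607, Mrpl36 0.0471, Mrpl58 0.1564, Mrps30 0.1758, Mrpl42 0.4372, Mrpl17 0.2016, Dap3 0.1603, Gadd45gip1 0.009242, Gabpa 0.1183. At d14 against 48 h, library totals alone gave Mrpl52 0.1409, Mrps16 0.1019, Mrps25 0.2502, Mrpl24 0.5369, Mrpl9 0.5128, Mrpl58 0.1904, Mrps12 0.08538, Mrps18a 0.03536, Mrps15 0.5351, Mrpl42 0.1212, Mrpl17 0.1803. At d14 against 48 h, the total of the 78 genes as library size gave Mrpl52 0.07555, Mrps16 0.04494, Mrps25 0.1883, Mrpl24 0.4745, Mrpl9 0.4505, Mrpl58 0.1328, Mrps12 0.01219, Mrps15 0.4759, Mrpl42 0.05869, Mrpl17 0.1224. At d14 against 48 h, the respiratory chain total gave Mrps25 0.0264. At d14 against 48 h, the cytosolic ribosomal total gave Mrpl52 0.04779, Mrps16 0.02677, Mrps25 0.1606, Mrpl24 0.4587, Mrpl9 0.436, Mrpl58 0.1119, Mrps15 0.4635, Mrpl42 0.0369, Mrpl17 0.1039. 

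In the shallowest library, 48 h replicate 2 with 8036054 counts, the members held 19563 counts, which limits single members there.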

Other observations

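Among the mitochondrial aminoacyl-tRNA synthetases, Lars2 stood apart in single libraries. It and the transcript CT010467.1 were chosen for mention after their values were seen. Lars2 was at 2350 CPM in 48 h replicate 3 and at 931 CPM in d14 replicate 2, against 249 to 722 CPM in the other 7 libraries, and passed the test in no comparison. In the same 2 libraries CT010467.1 took 5.06% and 3.53% of counts, against 0.954 to 1.51% in the others. The other 16 synthetases together were at 402 to 411 CPM in uninjured libraries, 312 to 319 CPM at 48 h and 254 to 277 CPM at d14, so the 3 groups lay apart once Lars2 was left out.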
